A study of Mus musculus with 18 samples.

Results

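Collagens are the main structural proteins of the extracellular matrix, and every mouse gene symbol of the form Col, number, a, number that the deposited table annotates as protein-coding was taken as a collagen gene, which gave 44 of 78317 genes. They were set in 3 classes from textbook knowledge, namely 11 fibrillar genes, 6 basement membrane genes (Col4a1 to Col4a6) and 27 others. The 44 were measured in 18 bulk RNA-seq libraries of cultured kidneys of wild-type mice at embryonic day 14, from the outbred CD1 stock. Every group received AAV2 (adeno-associated virus) over 4 hours, with a vector carrying the red reporter mCherry under the ubiquitous CAG promoter and 2 short hairpin RNA (shRNA) cassettes in a mir30 backbone. The cassettes were aimed at a pair of Mylk regions (Mylk-shRNA), at Rock1 and Rock2 (Rock1/2-shRNA) or at no gene by design, using shuffled Rock1 and Rock2 sequences (scramble-shRNA). Kidneys were then kept for 72 hours in a gel of equal volumes of collagen I and Matrigel, a basement membrane extract, in medium with serum, so every group grew in added collagen protein. The kidneys of a condition were pooled, digested for 30 minutes with trypsin and collagenase, and sorted by mCherry brightness, with the brightest 25% kept as the positive and the dimmest 50% as the negative fraction. The vectors and fractions made 6 groups, and each had 3 libraries, from litters 1, 2 and 3, and both fractions of a culture came from the same pooled kidneys. The CAG promoter is active in many cell types, so the sort separates cells by reporter signal and not by cell type.

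A collagen molecule is a triple helix of alpha chains, and each gene encodes a single type of chain. Fibrillar collagens form the cable-like fibrils of connective tissue, which in the developing kidney is made mainly by stromal cells. Type IV collagen forms the sheet-like network of basement membranes, onto which epithelial and endothelial cells attach. Among the others, FACIT collagens decorate fibrils, type VI forms beaded filaments, types VIII and X form open networks, type VII anchors epithelia, multiplexins sit near basement membranes and carry glycans, and a further group spans the plasma membrane. All values here are of transcripts, and the added collagen protein is not counted. Levels are given as CPM, counts scaled to a library total of 1000000, which are not divided by gene length, so they are compared between libraries and not between genes.

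The type IV genes Col4a1 and Col4a2 are known to lie head to head, and their RefSeq promoter windows are shown because both chains moved the same way in the results given further on. The window of Col1a2, a fibrillar chain, is set beside them. Each window runs from 250 bases before to 50 bases after the start site and is written 5′ to 3′ on the gene's own strand in GRCm38.p6, with the letters CCAAT, or their complement on the other strand (ATTGG), in capitals. The study's own build was GRCm39, per the submitters' processing notes, so these coordinates are RefSeq's and not the study's.
Col4a1, chr8:11312777-11313076, minus strand: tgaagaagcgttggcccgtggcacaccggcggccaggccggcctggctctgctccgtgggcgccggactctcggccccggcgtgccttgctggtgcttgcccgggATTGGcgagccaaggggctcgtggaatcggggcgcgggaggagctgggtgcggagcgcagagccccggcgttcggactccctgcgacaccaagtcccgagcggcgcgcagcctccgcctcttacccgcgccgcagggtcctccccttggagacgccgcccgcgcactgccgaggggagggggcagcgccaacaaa
Col4a2, chr8:11312555-11312854, plus strand: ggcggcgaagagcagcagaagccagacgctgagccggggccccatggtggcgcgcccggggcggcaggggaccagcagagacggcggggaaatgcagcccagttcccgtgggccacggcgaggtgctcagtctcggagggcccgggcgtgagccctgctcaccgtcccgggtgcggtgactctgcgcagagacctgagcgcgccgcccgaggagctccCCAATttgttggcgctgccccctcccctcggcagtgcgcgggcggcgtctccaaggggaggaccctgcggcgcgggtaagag
Col1a2, chr6:4505368-4505667, plus strand: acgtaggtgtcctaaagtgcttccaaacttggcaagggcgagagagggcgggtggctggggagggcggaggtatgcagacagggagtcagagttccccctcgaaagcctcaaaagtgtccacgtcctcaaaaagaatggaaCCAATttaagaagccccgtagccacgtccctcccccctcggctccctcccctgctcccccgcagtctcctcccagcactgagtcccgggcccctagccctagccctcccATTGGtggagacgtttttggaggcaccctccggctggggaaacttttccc
The start sites of Col4a1 (minus strand, chr8:11312826) and Col4a2 (plus strand, chr8:11312805) lay 21 bases apart. By these RefSeq positions the first bases of both genes overlapped, with no gap between the starts, and the windows shared 78 bases. Of the 44 collagen genes, 35 had at least 1 window in the RefSeq table, 38 windows in all. CCAAT was found on either strand in 34.2% of the 38 windows and in 37.4% of all 32851 windows of that length. The match is a description of letters and not of binding.

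Library totals ran between 3121206 and 12170313 counts (median 7580832). Litter 3 held more mitochondrial reads in most groups, with 3.949 to 9.16% of counts from the mitochondrial genome, against 2.011 to 4.024% in litters 1 and 2. None of the targeted transcripts differed between vectors past the test. Mylk stood at 169, 187 and 168 CPM with Mylk-shRNA in the positive fraction, against 211, 181 and 198 CPM with scramble-shRNA, a log2 fold change of -0.19 ± 0.14 (SE, adjusted p = 1, edgeR). Rock1 stood at 82.2, 83.9 and 74.7 CPM with Rock1/2-shRNA, against 78.9, 76.5 and 101 CPM with scramble-shRNA in the same fraction, a log2 fold change of -0.088 ± 0.14 (SE, adjusted p = 1). For Rock2 the values were 56.2, 67.7 and 64.96 CPM with Rock1/2-shRNA and 64.97, 67.5 and 81.9 CPM with scramble-shRNA, a log2 fold change of -0.17 ± 0.16 (SE, adjusted p = 1). Of the 3, Mylk was higher in the positive than in the negative fraction of every culture, by 1.37 ± 0.085 on the log2 scale (SE, adjusted p = 6.24e-10). Kidney markers were present in both fractions, with summed nephron progenitor markers (Six2, Cited1, Eya1, Crym, Meox1 and Osr1) of 383 to 523 CPM in positive and 375 to 874 CPM in negative libraries.

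More collagen genes were higher than lower in the mCherry-positive fraction. On the average of the 3 vectors, 21 of the 40 collagen genes tested were higher in the positive than in the negative fraction, 5 were lower and 14 did not pass (edgeR's quasi-likelihood test on counts, Benjamini-Hochberg adjustment over 16544 genes, threshold 0.05). Over all genes tested in that comparison, 17.6% were higher and 16.0% lower. With litter as a block, 25 collagen genes were higher and 9 lower, beside 22.2% higher and 23.5% lower over all genes. The median log2 fold change was 0.437 over the 40 collagen genes and -0.026 over all genes tested. By class, the test gave 6 higher and 1 lower of 11 fibrillar genes (median 0.377), 3 higher and 0 lower of 6 basement membrane genes (median 0.543), and 12 higher and 4 lower of 23 other genes tested (median 0.260). The difference between the classes was not tested. Fewer cells of a type and less RNA per cell cannot be told apart in bulk libraries. The remaining 4 genes, all in the other class, had too few counts to be tested, with 91 counts for Col22a1, 10 for Col19a1, 8 for Col6a5 and 4 for Col28a1 over the 18 libraries.

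**Figure D1:**
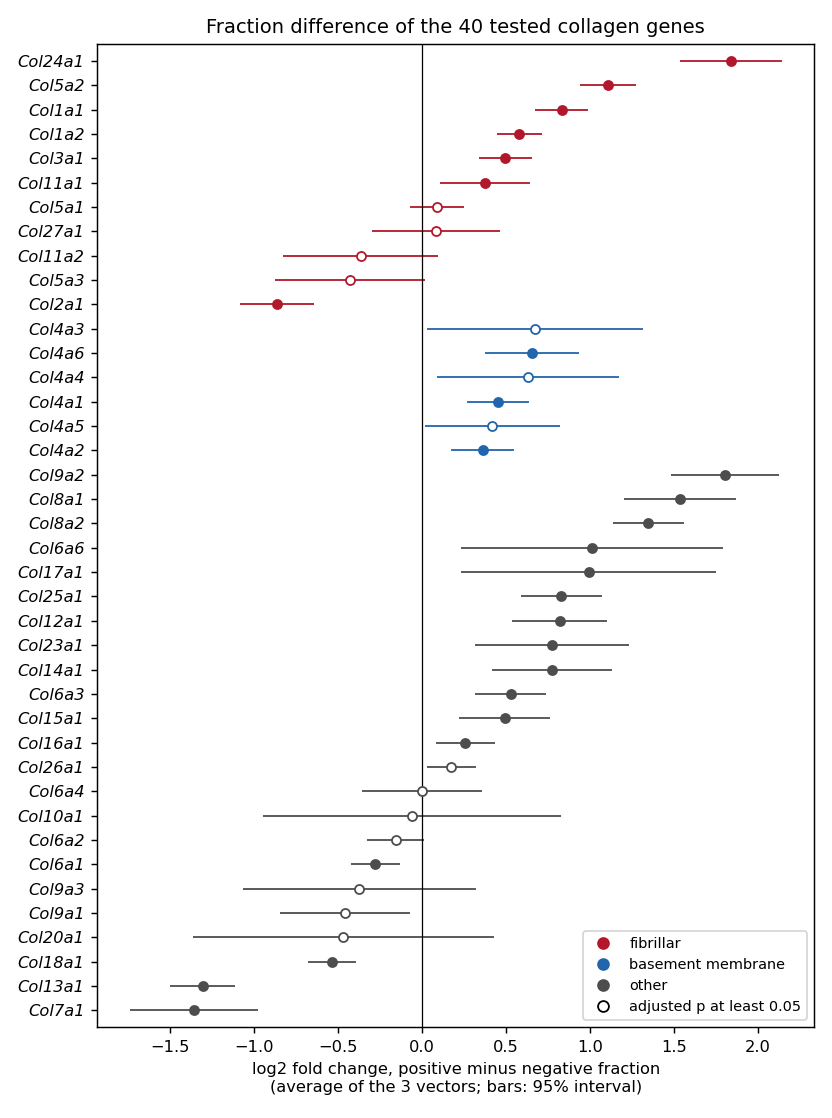
Log2 fold change of the 40 collagen genes tested, positive minus negative fraction averaged over the 3 vectors, with 95% intervals on the x axis and genes by class down the page. Filled points passed an adjusted p of 0.05. All 6 basement membrane genes lie right of 0, whereas the fibrillar genes run from Col24a1 at 1.84 down to Col2a1 at -0.86 and the others from Col9a2 at 1.80 down to Col7a1 at -1.35.

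The same direction held for the summed collagen CPM in each vector. Summed over all 44 genes, transcripts came to 10192 ± 1372 CPM in the positive fraction, against 6653 ± 359 CPM in the negative fraction with Mylk-shRNA (SD, n = 3 each). With Rock1/2-shRNA the sum was 9015 ± 1386 CPM in the positive fraction, against 6471 ± 337 CPM in the negative fraction. Scramble-shRNA cultures had 8993 ± 904 CPM in the positive fraction, against 6399.8 ± 647 CPM in the negative fraction. The positive and negative ranges did not overlap within any vector.

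The fibrillar sum was apart between fractions in each vector. Most of it came from Col1a1, Col1a2 and Col3a1, with means of 2505, 1838 and 1826 CPM over the positive libraries, so it does not describe each fibrillar gene. The next, Col5a1, had a mean of 263 CPM. Fibrillar transcripts summed to 7355 ± 1003 CPM in the positive fraction, against 4368 ± 237 CPM in the negative fraction with Mylk-shRNA. They came to 6463 ± 977 CPM in the positive fraction, against 4196 ± 175 CPM in the negative fraction with Rock1/2-shRNA. With scramble-shRNA they came to 6536 ± 582 CPM in the positive fraction, against 4239.6 ± 392 CPM in the negative fraction.

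Basement membrane collagen transcripts summed to 1216 ± 191 CPM in the positive fraction, against 802 ± 73.9 CPM in the negative fraction with Mylk-shRNA. The corresponding sum was 1099.6 ± 199 CPM in the positive fraction, against 830.0 ± 93.99 CPM in the negative fraction with Rock1/2-shRNA, and 1040.4 ± 196 CPM in the positive fraction, against 767 ± 157 CPM in the negative fraction with scramble-shRNA. Positive and negative ranges were apart with Mylk-shRNA and Rock1/2-shRNA and overlapped with scramble-shRNA. Most of this sum came from Col4a1 and Col4a2, with means of 745 and 328 CPM over the positive libraries, and the next, Col4a5, had 29.3 CPM. The 27 other genes summed to 1621 ± 183 CPM in the positive fraction, against 1483 ± 84.6 CPM in the negative fraction with Mylk-shRNA, to 1453 ± 221 CPM in the positive fraction, against 1445 ± 92.7 CPM in the negative fraction with Rock1/2-shRNA, and to 1417 ± 150.0 CPM in the positive fraction, against 1393 ± 119 CPM in the negative fraction with scramble-shRNA. Here the fractions overlapped in all 3 vectors. No test was made on these sums.

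Among the fibrillar genes, Col24a1, Col5a2, Col1a1, Col1a2, Col3a1 and Col11a1 were called higher and Col2a1 lower. Col1a1 (ENSMUSG00000001506) and Col1a2 (ENSMUSG00000029661) encode the chains of type I collagen, the main fibril of most connective tissue. Col1a1 stood at 2532, 3235 and 2364 CPM with Mylk-shRNA, 2467, 2716 and 1864 with Rock1/2-shRNA and 2309, 2746 and 2316 with scramble-shRNA in the positive fraction. Negative fractions had 1445, 1352 and 1351 CPM with Mylk-shRNA, 1246, 1399 and 1227 with Rock1/2-shRNA and 1535, 1339 and 1272 with scramble-shRNA. All 9 positive libraries lay above all 9 negative ones, and within the positive fraction litter 2 was highest with every vector. Col1a1 was higher by 0.83 ± 0.075 (SE, adjusted p = 8.30e-08) on the log2 scale.

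Col1a2 stood at 1864, 2086 and 1846 CPM with Mylk-shRNA, 1831, 1939 and 1567 with Rock1/2-shRNA and 1684, 1934 and 1793 with scramble-shRNA in the positive fraction. Negative fractions had 1283, 1106 and 1248 CPM with Mylk-shRNA, 1130.2, 1193 and 1217 with Rock1/2-shRNA and 1208, 1071 and 1182 with scramble-shRNA. The fractions again did not overlap, and Col1a2 was higher by 0.58 ± 0.063 (SE, adjusted p = 8.11e-07). Col3a1 (ENSMUSG00000026043), the chain of type III collagen, which is laid down with type I, showed the same separation. Col3a1 stood at 2024, 2388 and 1719 CPM with Mylk-shRNA, 1817, 2002 and 1414 with Rock1/2-shRNA and 1625, 1889 and 1558 with scramble-shRNA in the positive fraction. Negative fractions had 1380.4, 1251 and 1201 CPM with Mylk-shRNA, 1278, 1289 and 1132 with Rock1/2-shRNA and 1381, 1172 and 1079.8 with scramble-shRNA. The lowest positive library, Rock1/2-shRNA in litter 3, stood just above the highest negative library, scramble-shRNA in litter 1. Col3a1 was higher by 0.50 ± 0.075 (SE, adjusted p = 3.71e-05).

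Type V collagen, which regulates how fibrils start and how thick they grow, split between its chains. Col5a2 stood at 227, 276 and 185 CPM with Mylk-shRNA, 221, 232 and 187 with Rock1/2-shRNA and 202, 239.5 and 175 with scramble-shRNA in the positive fraction. Negative fractions had 108, 90.2 and 94.04 CPM with Mylk-shRNA, 109, 93.99 and 86.4 with Rock1/2-shRNA and 111, 88.8 and 86.1 with scramble-shRNA. For Col5a2 (ENSMUSG00000026042) the lowest positive library exceeded the highest negative one by a wide margin, and the difference was 1.11 ± 0.079 (SE, adjusted p = 3.73e-09). Col5a1 stood at 308, 341 and 252 CPM with Mylk-shRNA, 241, 282 and 204 with Rock1/2-shRNA and 242, 276 and 217 with scramble-shRNA in the positive fraction. Negative fractions had 256, 214 and 265 CPM with Mylk-shRNA, 229, 254 and 219 with Rock1/2-shRNA and 273, 200.3 and 214 with scramble-shRNA. For its partner Col5a1 (ENSMUSG00000026837) the fractions overlapped with every vector, the positive library was the higher in 6 of 9 cultures, and the log2 fold change was 0.093 ± 0.077 (SE, adjusted p = 0.382). Col5a3, a further type V chain, had 3.83 to 6.67 CPM (median 5.32) in the 9 positive libraries, against 3.86 to 11.9 CPM (median 7.05) in the 9 negative ones. Its log2 fold change was -0.43 ± 0.21 (SE, adjusted p = 0.136), and with litter as a block it was called lower at -0.41 ± 0.14 (SE, adjusted p = 0.0239).

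Col24a1 (ENSMUSG00000028197), a minor fibrillar chain, had the largest positive fold change of the 40 genes tested. Col24a1 stood at 9.52, 8.10 and 10.1 CPM with Mylk-shRNA, 9.61, 7.10 and 11.02 with Rock1/2-shRNA and 9.41, 9.82 and 8.88 with scramble-shRNA in the positive fraction. Negative fractions had 2.30, 2.49 and 3.54 CPM with Mylk-shRNA, 2.00, 1.96 and 2.42 with Rock1/2-shRNA and 3.39, 2.05 and 2.83 with scramble-shRNA. Every positive library held more than every negative library, and the difference was 1.84 ± 0.14 (SE, adjusted p = 1.26e-08). Col2a1 (ENSMUSG00000022483), the chain of type II collagen known from cartilage, went the other way. Col2a1 stood at 34.3, 56.9 and 53.6 CPM with Mylk-shRNA, 49.01, 42.5 and 54.1 with Rock1/2-shRNA and 45.6, 48.6 and 53.3 with scramble-shRNA in the positive fraction. Negative fractions had 76.6, 87.6 and 52.4 CPM with Mylk-shRNA, 92.4, 91.6 and 85.2 with Rock1/2-shRNA and 96.6, 103 and 77.6 with scramble-shRNA. Positive libraries were lower in 8 of 9 cultures, the exception being Mylk-shRNA in litter 3, whose negative library alone fell within the positive range. Col2a1 was lower, with a log2 fold change of -0.86 ± 0.10 (SE, adjusted p = 3.1e-06).

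Type XI collagen, which forms mixed fibrils with type II in cartilage and with type V elsewhere, had chains of opposite sign. Col11a1 had 15.2 to 30.8 CPM (median 25.7) in positive libraries, against 13.8 to 25.5 CPM (median 19.6) in negative ones, and was called higher at 0.38 ± 0.13 (SE, adjusted p = 0.0294). That call was lost when any of 8 libraries was left out alone, with adjusted p of at most 0.0852 and a log2 fold change of at least 0.31. These were Mylk-shRNA positive litters 1 and 2 and negative litter 2, Rock1/2-shRNA positive litters 1 and 2 and negative litter 3, and scramble-shRNA positive and negative litter 2. Col11a2 had 7.86 to 21.9 CPM (median 12.5) in positive libraries, against 12.5 to 22.1 CPM (median 14.9) in negative ones, and was lower in the positive fraction of all 9 cultures. Its log2 fold change was -0.36 ± 0.22 (SE, adjusted p = 0.224), and with litter as a block it passed at -0.40 ± 0.089 (SE, adjusted p = 0.000877). Col11a2 also separated litter 3 from the other litters. Its 6 libraries of litter 3 held 18.9 to 22.1 CPM, and the 12 libraries of litters 1 and 2 held 7.86 to 18.6 CPM. It was the 1 collagen gene of 40 tested with all 6 libraries of litter 3 above or below all 12 others, a separation seen in 6.22% of all genes tested. Col27a1, a fibrillar chain of cartilage, had a log2 fold change of 0.086 ± 0.18 (SE, adjusted p = 0.76), with 24.7 to 48.8 CPM (median 34.1) in positive and 19.6 to 48.7 CPM (median 34.3) in negative libraries.

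**Figure D2:**
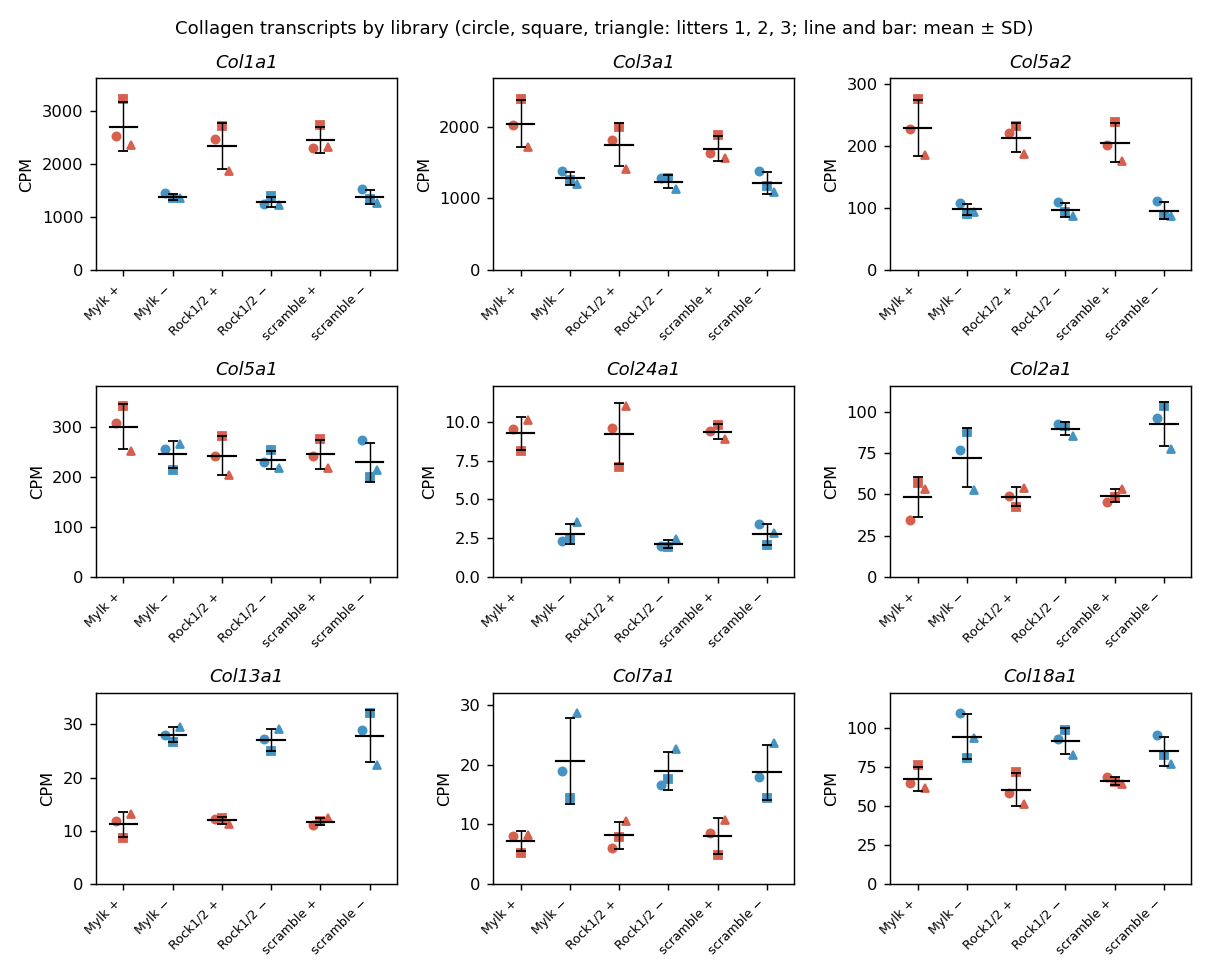
CPM of 9 collagen genes in each library, with the 6 groups on the x axis (+ positive fraction in red, − negative fraction in blue) and CPM from 0 on the y axis; bars are mean ± SD of 3 litters. Col1a1, Col3a1, Col5a2 and Col24a1 lie higher in every positive library, Col13a1, Col7a1 and Col18a1 lie lower, and Col5a1 overlaps.

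All 6 type IV chains had a positive log2 fold change, and 3 of them passed without a litter block. Col4a1 (ENSMUSG00000031502) and Col4a2 (ENSMUSG00000031503) form the network found in all basement membranes. Col4a1 stood at 805, 942 and 686 CPM with Mylk-shRNA, 730.4, 869 and 610.1 with Rock1/2-shRNA and 695, 803 and 565 with scramble-shRNA in the positive fraction. Negative fractions had 585, 495 and 503 CPM with Mylk-shRNA, 568, 597 and 481 with Rock1/2-shRNA and 603, 482 and 397 with scramble-shRNA. The positive library was the higher of its culture in all 9 cultures, although the ranges of the fractions overlapped (565 to 942 CPM against 397 to 603 CPM). Col4a1 was higher by 0.45 ± 0.087 (SE, adjusted p = 4.67e-04). Col4a2 stood at 346, 415 and 306 CPM with Mylk-shRNA, 304, 389 and 269 with Rock1/2-shRNA and 304, 380.1 and 241 with scramble-shRNA in the positive fraction. Negative fractions had 272, 232 and 229.9 CPM with Mylk-shRNA, 249.6, 277 and 225 with Rock1/2-shRNA and 290.5, 225 and 209.5 with scramble-shRNA. Again all 9 cultures were higher in the positive fraction, with overlapping ranges, and Col4a2 was higher by 0.36 ± 0.089 (SE, adjusted p = 0.00375).

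Col4a3, Col4a4 and Col4a5 encode the chains of the mature glomerular basement membrane, and Col4a5 and Col4a6 form a network known from Bowman's capsule and smooth muscle. Col4a6 stood at 8.69, 9.53 and 8.17 CPM with Mylk-shRNA, 8.01, 9.23 and 7.10 with Rock1/2-shRNA and 8.88, 10.4 and 6.98 with scramble-shRNA in the positive fraction. Negative fractions had 5.30, 5.06 and 3.54 CPM with Mylk-shRNA, 6.26, 5.88 and 3.99 with Rock1/2-shRNA and 7.70, 4.31 and 5.14 with scramble-shRNA. Col4a6 (ENSMUSG00000031273) was the higher of each culture in the positive fraction, and its difference was 0.66 ± 0.13 (SE, adjusted p = 7.87e-04). Col4a5 stood at 35.3, 38.7 and 25.7 CPM with Mylk-shRNA, 28.5, 35.02 and 17.4 with Rock1/2-shRNA and 26.6, 35.4 and 20.9 with scramble-shRNA in the positive fraction. Negative fractions had 21.5, 22.7 and 16.2 CPM with Mylk-shRNA, 28.5, 23.2 and 11.3 with Rock1/2-shRNA and 31.6, 21.8 and 11.3 with scramble-shRNA. Litter 3 was lowest in every group for Col4a5 (ENSMUSG00000031274). The positive library was higher in 8 of 9 cultures, the exception being scramble-shRNA in litter 1, and the log2 fold change was 0.42 ± 0.19 (SE, adjusted p = 0.101). With litter as a block Col4a5 passed at 0.44 ± 0.099 (SE, adjusted p = 0.00109).

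The other pair of glomerular chains was measured at a few CPM. Col4a3 stood at 1.76, 1.91 and 3.101 CPM with Mylk-shRNA, 1.92, 2.25 and 5.39 with Rock1/2-shRNA and 1.95, 1.35 and 3.17 with scramble-shRNA in the positive fraction. Negative fractions had 1.41, 0.912 and 2.88 CPM with Mylk-shRNA, 0.870, 1.61 and 2.14 with Rock1/2-shRNA and 1.65, 0.822 and 1.54 with scramble-shRNA. For Col4a3 (ENSMUSG00000079465) the positive library was higher in all 9 cultures, and the log2 fold change was 0.67 ± 0.31 (SE, adjusted p = 0.101). Col4a4 stood at 2.07, 8.10 and 5.64 CPM with Mylk-shRNA, 2.56, 4.61 and 4.65 with Rock1/2-shRNA and 4.62, 5.03 and 7.29 with scramble-shRNA in the positive fraction. Negative fractions had 2.38, 2.07 and 5.53 CPM with Mylk-shRNA, 3.13, 3.23 and 2.71 with Rock1/2-shRNA and 3.39, 1.73 and 3.86 with scramble-shRNA. Col4a4 (ENSMUSG00000067158) was higher in 7 of 9 cultures, with a log2 fold change of 0.63 ± 0.26 (SE, adjusted p = 0.0691). With litter as a block both passed, at 0.64 ± 0.20 for Col4a3 (SE, adjusted p = 0.0113) and 0.60 ± 0.22 for Col4a4 (SE, adjusted p = 0.0281), so that all 6 type IV chains were then called higher. Podocyte markers, which belong to the cells that lay down these chains, had summed levels of 90.8 to 120 CPM in positive and 70.3 to 115 CPM in negative libraries. Of 4 tested without the block, 2 were higher and 1 lower, beside 17.6% higher and 16.0% lower over all genes. Nphs1 was at 0 in 4 of 9 positive and 2 of 9 negative libraries.

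**Figure D3:**
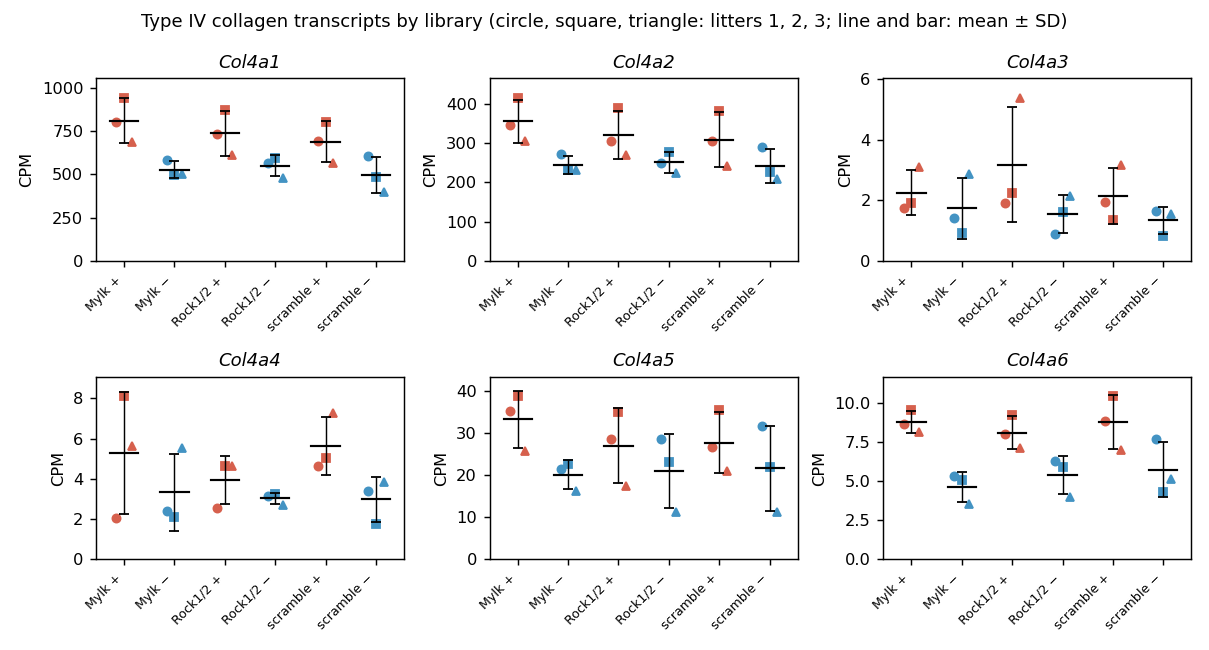
CPM of the 6 type IV collagen genes in each library, with the 6 groups on the x axis (+ positive fraction in red, − negative fraction in blue) and CPM from 0 on the y axis; bars are mean ± SD of 3 litters. Means are higher in the positive fraction for every gene and vector, the points of the fractions overlap, and litter 3 (triangles) is lowest in every group for Col4a5.

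The other collagens changed in both directions. Type VIII collagen forms a hexagonal network and is known from blood vessels and the cornea, and both of its chains were higher. Col8a1 stood at 22.8, 27.9 and 18.9 CPM with Mylk-shRNA, 25.6, 21.8 and 18.6 with Rock1/2-shRNA and 13.8, 22.2 and 16.8 with scramble-shRNA in the positive fraction. Negative fractions had 5.83, 7.71 and 11.3 CPM with Mylk-shRNA, 4.35, 8.18 and 4.70 with Rock1/2-shRNA and 8.15, 5.09 and 9.51 with scramble-shRNA. Col8a2 stood at 26.4, 34.3 and 23.1 CPM with Mylk-shRNA, 24.3, 26.7 and 18.9 with Rock1/2-shRNA and 24.7, 24.2 and 19.98 with scramble-shRNA in the positive fraction. The negative fractions of Col8a2 stood at 7.86, 10.6 and 8.19 CPM with Mylk-shRNA, 9.40, 8.64 and 8.12 with Rock1/2-shRNA and 12.9, 9.37 and 8.48 with scramble-shRNA. No positive library overlapped a negative library for either gene. Col8a1 (ENSMUSG00000068196) was higher by 1.54 ± 0.16 (SE, adjusted p = 4.75e-07), and Col8a2 (ENSMUSG00000056174) by 1.35 ± 0.10 (SE, adjusted p = 6.56e-09).

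FACIT collagens attach to the surface of fibrils. Col9a2 (ENSMUSG00000028626), a chain of type IX, had the second largest increase. Col9a2 stood at 19.97, 17.6 and 11.8 CPM with Mylk-shRNA, 19.9, 13.02 and 11.02 with Rock1/2-shRNA and 16.7, 13.1 and 16.5 with scramble-shRNA in the positive fraction. Negative fractions had 6.27, 3.32 and 5.31 CPM with Mylk-shRNA, 4.09, 4.73 and 2.71 with Rock1/2-shRNA and 4.12, 3.53 and 4.88 with scramble-shRNA. The fractions did not overlap, and the difference was 1.80 ± 0.15 (SE, adjusted p = 3.61e-08). Col9a1 stood at 10.6, 11.4 and 7.61 CPM with Mylk-shRNA, 11.2, 10.5 and 4.65 with Rock1/2-shRNA and 9.05, 9.64 and 10.8 with scramble-shRNA in the positive fraction. Negative fractions had 11.5, 12.9 and 5.64 CPM with Mylk-shRNA, 14.9, 15.5 and 7.98 with Rock1/2-shRNA and 18.6, 16.4 and 8.35 with scramble-shRNA. For the partner chain Col9a1 the fractions overlapped, and the log2 fold change was -0.46 ± 0.18 (SE, adjusted p = 0.0657), which passed as lower with litter as a block at -0.47 ± 0.11 (SE, adjusted p = 0.00138). The third chain, Col9a3, was near 1 CPM, with 0.317 to 1.41 CPM (median 0.715) in positive and 0.706 to 1.57 CPM (median 0.822) in negative libraries, and a log2 fold change of -0.37 ± 0.33 (SE, adjusted p = 0.425).

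Of the FACIT collagens of soft tissue, Col12a1 was higher by 0.82 ± 0.13 (SE, adjusted p = 1.22e-04), with 41.4 to 98.2 CPM (median 65.96) in positive and 30.4 to 45.8 CPM (median 36.5) in negative libraries. Its single culture with a lower positive library was Mylk-shRNA in litter 3. Col14a1 was higher by 0.77 ± 0.17 (SE, adjusted p = 0.0018), with 13.7 to 36.7 CPM (median 30.7) in positive and 10.3 to 24.7 CPM (median 13.5) in negative libraries and all 9 cultures higher. Col16a1 was higher by 0.26 ± 0.084 (SE, adjusted p = 0.0215), a call lost without the litter 2 library of scramble-shRNA positive (0.21, adjusted p = 0.0595), scramble-shRNA negative (0.23, adjusted p = 0.0515) or Rock1/2-shRNA positive (0.23, adjusted p = 0.0554), and without the filter on low counts (0.25, adjusted p = 0.0553). Its libraries held 90.3 to 128 CPM (median 113) in the positive and 73.6 to 108 CPM (median 90.3) in the negative fraction. Col20a1 did not pass, at -0.47 ± 0.43 (SE, adjusted p = 0.438), with 0.982 to 1.69 CPM (median 1.224) in positive and 0.493 to 4.76 CPM (median 1.33) in negative libraries.

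Type VI collagen, the beaded filament around cells, showed a split between chains. Col6a3 had 120.2 to 230.1 CPM (median 173) in positive libraries, against 98.7 to 147 CPM (median 112) in negative ones, and was higher in all 9 cultures, by 0.53 ± 0.10 (SE, adjusted p = 4.58e-04). Col6a1, whose chain assembles with that of Col6a3, had 398 to 551 CPM (median 477) in positive libraries, against 470.4 to 595 CPM (median 544) in negative ones. Col6a1 was lower, with a log2 fold change of -0.28 ± 0.07 (SE, adjusted p = 0.00485), which without litter 3 was -0.21 with an adjusted p of 0.0660. Col6a2, the third chain of the common filament, had 249 to 379.8 CPM (median 295) in positive and 281 to 372 CPM (median 336) in negative libraries. Its log2 fold change was -0.15 ± 0.08 (SE, adjusted p = 0.153), and it was called lower with litter as a block (-0.16 ± 0.062, SE, adjusted p = 0.0438) but not with culture as the block. Col6a6 was higher at 1.01 ± 0.37 (SE, adjusted p = 0.0419) on low levels of 0.490 to 3.31 CPM (median 1.43) in positive and 0.332 to 1.10 CPM (median 0.514) in negative libraries. That call was lost without litter 3 (adjusted p = 0.0791) and in 11 of 18 fits that left out a single library (adjusted p of at most 0.145, without Mylk-shRNA positive litter 1). It held without any of the other 7, which were Mylk-shRNA positive litters 2 and 3 and negative litter 1, Rock1/2-shRNA positive litter 3 and negative litter 1, and scramble-shRNA positive litter 2 and negative litter 1. Col6a4 had 10.8 to 29.5 CPM (median 20.6) in positive and 14.7 to 29.7 CPM (median 16.5) in negative libraries, a log2 fold change of 0.0034 ± 0.17 (SE, adjusted p = 0.993).

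The membrane-spanning collagens went in both directions. Col13a1 stood at 11.8, 8.58 and 13.2 CPM with Mylk-shRNA, 12.17, 12.4 and 11.3 with Rock1/2-shRNA and 11.01, 11.8 and 12.4 with scramble-shRNA in the positive fraction. Negative fractions had 27.99, 26.7 and 29.4 CPM with Mylk-shRNA, 27.2, 24.9 and 29.1 with Rock1/2-shRNA and 28.9, 32.04 and 22.4 with scramble-shRNA. Col13a1 (ENSMUSG00000058806), a chain found at cell junctions with the matrix, was lower in every positive library than in any negative library. Its log2 fold change was -1.30 ± 0.092 (SE, adjusted p = 3.62e-09). Col25a1 was higher, with 19.7 to 33.8 CPM (median 28.2) in positive libraries, against 12.1 to 19.5 CPM (median 13.1) in negative ones, without overlap and by 0.83 ± 0.12 (SE, adjusted p = 1.54e-05). Col23a1, with 13.96 to 28.3 CPM (median 20.4) in positive and 6.14 to 18.6 CPM (median 11.2) in negative libraries, was higher by 0.78 ± 0.22 (SE, adjusted p = 0.0105) and in all 9 cultures, a call lost without litter 3 (0.80, adjusted p = 0.0720) and without the filter on low counts (adjusted p = 0.0666). Col17a1, a chain of epithelial attachment sites, was called higher at 0.99 ± 0.36 (SE, adjusted p = 0.0414) on levels of 0 to 2.69 CPM (median 1.71) in positive and 0.231 to 1.92 CPM (median 0.783) in negative libraries. The Col17a1 call was lost in 12 of 18 fits that left out a single library, and without Mylk-shRNA positive litter 1 the log2 fold change was 0.57 (adjusted p = 0.300). It held without any of the other 6, which were Mylk-shRNA positive litters 2 and 3 and negative litter 3, Rock1/2-shRNA negative litter 1, and scramble-shRNA positive litter 3 and negative litter 1.

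Type VII and the multiplexins, which sit at or near basement membranes, went in both directions. Col18a1 stood at 64.8, 76.2 and 62.01 CPM with Mylk-shRNA, 58.3, 72.3 and 51.7 with Rock1/2-shRNA and 69.1, 65.3 and 64.1 with scramble-shRNA in the positive fraction. Negative fractions had 109.7, 81.03 and 93.6 CPM with Mylk-shRNA, 93.5, 99.1 and 82.8 with Rock1/2-shRNA and 95.6, 82.9 and 77.4 with scramble-shRNA. Col18a1 (ENSMUSG00000001435), the multiplexin that gives rise to endostatin, lay below every negative library in each positive library, with a log2 fold change of -0.53 ± 0.068 (SE, adjusted p = 5.46e-06). Col7a1 stood at 8.12, 5.24 and 8.17 CPM with Mylk-shRNA, 6.09, 7.93 and 10.5 with Rock1/2-shRNA and 8.52, 4.91 and 10.8 with scramble-shRNA in the positive fraction. Negative fractions had 18.9, 14.3 and 28.5 CPM with Mylk-shRNA, 16.6, 17.5 and 22.5 with Rock1/2-shRNA and 17.96, 14.5 and 23.7 with scramble-shRNA. Col7a1 (ENSMUSG00000025650), which forms the anchoring fibrils of epithelia, likewise did not overlap between fractions. Its log2 fold change was -1.35 ± 0.18 (SE, adjusted p = 1.31e-05). The other multiplexin, Col15a1, had 19.3 to 42.2 CPM (median 29.6) in positive and 15.7 to 30.3 CPM (median 17.2) in negative libraries, and was higher in all 9 cultures, by 0.49 ± 0.13 (SE, adjusted p = 0.00605). Col26a1 had 74.00 to 99.8 CPM (median 82.02) in positive and 55.98 to 81.6 CPM (median 74.00) in negative libraries. Its log2 fold change was 0.18 ± 0.069 (SE, adjusted p = 0.0566), and it passed as higher with litter as a block (0.17 ± 0.053, SE, adjusted p = 0.0103). Col10a1, the network collagen of growth cartilage, had 0.238 to 1.90 CPM (median 0.641) in positive and 0.261 to 1.80 CPM (median 0.641) in negative libraries, with a log2 fold change of -0.058 ± 0.42 (SE, adjusted p = 0.937).

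Across the 40 genes tested, 9 had all 9 positive libraries above all 9 negative ones, namely Col1a1, Col1a2, Col3a1, Col5a2, Col24a1, Col8a1, Col8a2, Col9a2 and Col25a1. Such separation was seen in 6.66% of all genes tested. The reverse was seen for 3 collagen genes, Col13a1, Col18a1 and Col7a1, and for 2.06% of all genes tested. None of the 6 type IV genes was among either set.

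The fraction difference was also read within each vector. With Mylk-shRNA, 14 collagen genes were higher and 4 lower, beside 8.07% higher and 5.14% lower over all genes. With Rock1/2-shRNA, 11 were higher and 4 lower, beside 6.94% and 4.3%. With scramble-shRNA, 10 were higher and 4 lower, beside 7.43% and 4.85%. The 10 genes higher with scramble-shRNA, Col1a1, Col1a2, Col3a1, Col5a2, Col24a1, Col8a1, Col8a2, Col9a2, Col12a1 and Col25a1, and the 4 lower, Col2a1, Col7a1, Col13a1 and Col18a1, were called in the same direction with all 3 vectors. Further calls without a block were Col6a3 with Mylk-shRNA and Rock1/2-shRNA, and Col14a1, Col4a1 and Col4a6 with Mylk-shRNA. In fits of the compared groups alone, Col3a1 lost its call with Mylk-shRNA (adjusted p = 0.0527), Rock1/2-shRNA (adjusted p = 0.0517) and scramble-shRNA (adjusted p = 0.0774). Col12a1 lost it there with Mylk-shRNA (adjusted p = 0.0512) and Rock1/2-shRNA (adjusted p = 0.0793), Col2a1 with Mylk-shRNA (adjusted p = 0.11) and Col6a3 with Rock1/2-shRNA (adjusted p = 0.0559). Without litter 3, Col18a1 lost its call with scramble-shRNA (adjusted p = 0.0513).

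With litter as a block no call within a vector was lost and others were gained. With Mylk-shRNA, 20 genes were then higher and 5 lower, beside 13.2% and 11.1% of all genes. Those gained were Col4a2 (adjusted p = 0.00406), Col4a5 (adjusted p = 0.00707), Col6a6 (adjusted p = 0.00173), Col15a1 (adjusted p = 0.0223), Col23a1 (adjusted p = 0.00283) and Col26a1 (adjusted p = 0.0195) as higher, and Col11a2 (adjusted p = 0.033) as lower. With Rock1/2-shRNA, 18 were higher and 6 lower, beside 11.3% and 9.05%. Those gained were Col4a1 (adjusted p = 0.014), Col4a3 (adjusted p = 0.0306), Col4a6 (adjusted p = 0.0496), Col11a1 (adjusted p = 0.0223), Col14a1 (adjusted p = 0.0493), Col17a1 (adjusted p = 0.04) and Col23a1 (adjusted p = 0.0128) as higher, and Col6a1 (adjusted p = 0.0255) and Col9a1 (adjusted p = 0.0321) as lower. With scramble-shRNA, 15 were higher and 6 lower, beside 12.4% and 10.8%. Those gained were Col4a1 (adjusted p = 0.0046), Col4a6 (adjusted p = 0.0217), Col6a3 (adjusted p = 0.0409), Col14a1 (adjusted p = 0.00214) and Col23a1 (adjusted p = 0.00525) as higher, and Col6a1 (adjusted p = 0.0418) and Col9a1 (adjusted p = 0.0108) as lower. Col6a3, Col14a1, Col23a1, Col4a1 and Col4a6 were thus called higher with all 3 vectors under that block. With culture as the block instead, Col4a3, Col4a6, Col14a1 and Col17a1 were not called with Rock1/2-shRNA. Nor were Col6a1 and Col6a3 with scramble-shRNA, or Col11a2 with Mylk-shRNA. Under the culture block Col4a1 and Col23a1 were still called higher with all 3 vectors.

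Of the type IV genes, Col4a1 was higher by 0.55 ± 0.15 (SE, adjusted p = 0.0198) with Mylk-shRNA, by a log2 fold change of 0.38 ± 0.15 (SE, adjusted p = 0.128) with Rock1/2-shRNA and of 0.43 ± 0.15 (SE, adjusted p = 0.0694) with scramble-shRNA. Col4a6 had 0.82 ± 0.23 (SE, adjusted p = 0.0231) with Mylk-shRNA, 0.55 ± 0.23 (SE, adjusted p = 0.154) with Rock1/2-shRNA and 0.60 ± 0.23 (SE, adjusted p = 0.102) with scramble-shRNA. The test of the difference itself called neither gene, as 0 of 40 collagen genes passed the interaction of fraction with Mylk-shRNA against scramble-shRNA in edgeR, beside 0.0% of all genes. The interaction with Rock1/2-shRNA also gave 0, beside 0.0%. DESeq2 called 0 in both, and at an unadjusted p under 0.05 both counts were 0 by edgeR and by DESeq2, where 1.31% and 0.876% of all genes had such a p. With culture in place of litter as the block, Col4a6 was not called with Rock1/2-shRNA. In a fit of the compared groups alone, the Mylk-shRNA calls were lost for Col4a1 (adjusted p = 0.0561) and Col4a6 (adjusted p = 0.0589), and without litter 3 that of Col4a6 was lost (adjusted p = 0.0658).

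Chains that assemble into the same molecule did not always keep their balance between the fractions. For 11 pairs of partner chains, picked after their values had been seen, the log2 ratio of the pair was taken in each fraction and the negative value subtracted from the positive value of the same culture. Values were log2 CPM with TMM scaling and a prior count of 2, so ratios with genes at low counts, such as Col9a3, depend on that prior count. The 9 cultures came from 3 litters, and the values are a description with no test. The pairs Col1a1 to Col1a2, Col5a2 to Col5a1, Col6a3 to Col6a1, Col9a2 to Col9a1 and Col9a2 to Col9a3 shifted towards the first chain in all 9 cultures.

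The ratio of Col1a1 to Col1a2 was higher in the positive fraction by 0.24 ± 0.066 on the log2 scale (SD, n = 9 cultures). Col5a2 to Col5a1 was higher by 1.01 ± 0.12, with a narrow range over cultures of 0.81 to 1.21. Col6a3 to Col6a1 was higher by 0.79 ± 0.19. The type IX means were the largest of the 11, at 2.12 ± 0.73 for Col9a2 to Col9a1 and 2.16 ± 0.61 for Col9a2 to Col9a3. With the deposited CPM plus 0.5 they were 2.06 and 2.04.

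By contrast, Col4a1 to Col4a2 moved by 0.10 ± 0.091, with 8 of 9 cultures above 0, and Col6a2 to Col6a1 by 0.12 ± 0.086, also with 8 of 9 above 0. The other type IV pairs had means within their SD of 0, at 0.029 ± 0.67 for Col4a3 to Col4a4 and -0.19 ± 0.31 for Col4a5 to Col4a6. Col8a1 to Col8a2 stood at 0.16 ± 0.61, and Col11a1 to Col11a2 at 0.74 ± 0.53 with 8 of 9 cultures above 0.

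**Figure D4:**
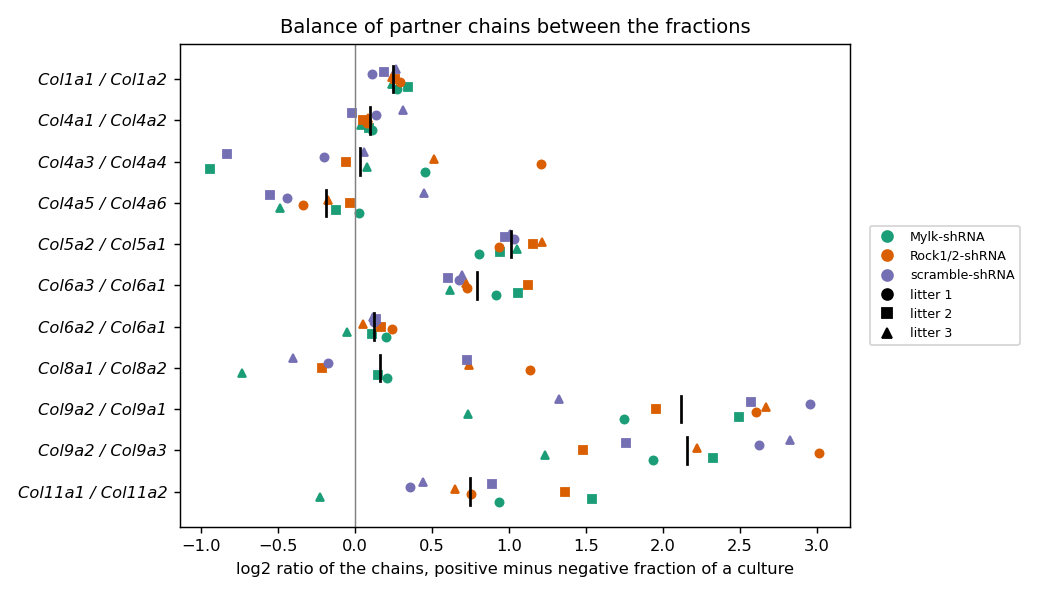
Change in the log2 ratio of 11 pairs of partner chains, positive minus negative fraction of the same culture, on the x axis, with 1 point per culture coloured by vector and shaped by litter; black lines are means of 9 cultures. The Col5a2 to Col5a1 points lie between 0.81 and 1.21, whereas those of Col4a1 to Col4a2 lie between -0.018 and 0.31.

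The enzymes and partners of collagens were read from 3 lists, on the average of the 3 vectors. Over all genes tested in that comparison, 17.6% were higher and 16.0% lower, with a median log2 fold change of -0.026. The collagen assembly list holds the hydroxylases, chaperones, propeptide proteases and crosslinking enzymes, and of 34 tested 11 were higher and 8 lower in the positive fraction (median 0.058). Loxl1, a crosslinking enzyme, was higher by 1.08, and Pcolce, an enhancer of propeptide removal, by 1.02 (adjusted p = 9.95e-10 and 4.95e-10). P4ha2 and P4hb, which encode subunits of prolyl 4-hydroxylase, were lower, at -1.78 and -0.82 (adjusted p = 1.31e-09 and 8.14e-07). Related genes of the list, named after their values were seen, went both ways. P4ha1 was lower at -0.93 and P4ha3 higher at 1.38 (adjusted p = 4.70e-06 and 1.62e-05). Loxl3 and Loxl4 were higher at 0.65 and 0.88, and Loxl2 was lower at -0.55 (adjusted p of at most 0.0238). Lox was not called, at -0.024 (adjusted p = 0.902). Of 22 receptors and turnover genes tested, 14 were higher and 2 lower (median 0.479). They include the proteases Mmp9 at 2.61, Fap at 1.62 and Mmp14 at 1.06 and the collagen receptor Ddr2 at 0.94 (adjusted p of at most 3.41e-07).

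The non-collagen partners of type IV collagen in basement membranes did not share its direction. Of 19 tested, 3 were higher and 11 lower (median -0.320), beside 17.6% higher and 16.0% lower over all genes (median -0.026). Lama2, a laminin chain of mesenchyme and muscle, was higher by 1.08 (adjusted p = 2.80e-07). The laminin chains Lama1 and Lama5, known from epithelial basement membranes, were lower, at -1.79 and -1.04 (adjusted p of at most 1.30e-04). The other laminin chains called higher, named after their values were seen, were Lama3 at 2.04 and Lamb2 at 0.43 (adjusted p = 0.00287 and 3.61e-04). Lama3 was at low levels, with 1.33 ± 0.56 CPM in positive and 0.35 ± 0.24 CPM in negative libraries (mean ± SD, n = 9 each).

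Markers of several cell types moved with the collagens between the fractions, and their part in the differences was not tested. For the marker counts here and in the next paragraph, the shares over all genes tested were 17.6% higher and 16.0% lower. Of 10 stromal markers 9 were higher in the positive fraction, Tcf21 being the exception, and their summed level was 2552 to 3499 CPM in positive and 1709.7 to 1949 CPM in negative libraries. Of 5 smooth muscle markers 4 were higher and Des lower, with sums of 330.0 to 923 CPM in positive and 145 to 225 CPM in negative libraries. All 5 macrophage markers were higher, with sums of 74.3 to 200.4 CPM in positive and 1.31 to 6.20 CPM in negative libraries, where C1qa was at 0 in 1 and Fcgr1 in 3 of 9. All 6 nephron progenitor markers and 6 of 7 ureteric bud markers were lower. Ureteric bud sums were 50.2 to 84.5 CPM in positive and 82.7 to 133 CPM in negative libraries, with Wnt9b at 0 in 2 of 9 positive ones.

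Of 7 endothelial markers 2 were higher and 4 lower, with sums of 122 to 220.3 CPM in positive and 159 to 254 CPM in negative libraries. Cartilage markers, set beside Col2a1, Col9a1, Col9a2 and Col11a2, were at low levels, with sums of 8.52 to 13.02 CPM in positive and 5.83 to 7.97 CPM in negative libraries. Of 3 cartilage markers tested, 2 (Hapln1 and Acan) were higher. Matn3 was at 0 in 5 of 9 positive and 4 of 9 negative libraries, Cnmd in 3 of 9 positive ones, and Ucma in 3 of 9 positive and 5 of 9 negative ones. Of 4 proximal tubule markers tested Hnf4a was lower (sums of 35.4 to 86.3 CPM in positive and 31.4 to 70.7 CPM in negative libraries, with Cubn at 0 in 2 of 9 positive ones). Of the Schwann and neural markers, Foxd3 was at 0 in all 9 positive and 7 of 9 negative libraries, and Sox10 in 8 of 9 positive and 6 of 9 negative ones.

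Between vectors no collagen gene was called, in either fraction. The question of these comparisons is whether collagen transcripts followed the hairpins against Mylk or against Rock1 and Rock2, and it was asked separately in cells with the most and the least reporter. In all 6 comparisons of vectors edgeR called 0 of 40 collagen genes, beside 0.0% of all genes. DESeq2 also called 0. At an unadjusted p under 0.05, edgeR found 1 collagen gene (Col5a1, Mylk-shRNA against Rock1/2-shRNA in the positive fraction). DESeq2 found the same gene there and Col3a1 and Col5a1 in the positive fraction for Mylk-shRNA against scramble-shRNA. Over all genes, 1.56% had such a p for Mylk-shRNA against scramble-shRNA, 0.876% for Rock1/2-shRNA against scramble-shRNA and 1.2% for Mylk-shRNA against Rock1/2-shRNA in the positive fraction. In the negative fraction the shares were 1.72%, 1.21% and 0.731%. With litter as a block 0 collagen genes were called between vectors, and at an unadjusted p under 0.05 there were 7 in the positive fraction for Mylk-shRNA against scramble-shRNA, beside 4.01% of all genes, and 3 in the negative fraction, beside 6.35%. That block gave 2 in the positive fraction for Mylk-shRNA against Rock1/2-shRNA, beside 2.88%, and 2 in the negative fraction, beside 3.23%. For Rock1/2-shRNA against scramble-shRNA it gave 0 in both fractions, beside 2.13% and 3.89%. For the interaction with fraction it gave 1 with Mylk-shRNA, beside 4.88%, and 0 with Rock1/2-shRNA, beside 2.64%. The comparisons of a fraction share libraries, so their values are given side by side.

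In the positive fraction, 30 of 40 collagen genes had a higher estimate with Mylk-shRNA than with scramble-shRNA (median 0.119, against 0.007 over all genes). The 3 with the smallest p were Col5a1, Col15a1 and Col3a1. Col5a1 had a log2 fold change of 0.27 (95% interval -0.0083 to 0.55, unadjusted p = 0.0565), from the values given above, where 252 CPM in litter 3 with Mylk-shRNA overlapped the scramble-shRNA range of 217 to 276 CPM. Col15a1 stood at 35.6, 42.2 and 29.6 CPM with Mylk-shRNA, against 26.98, 29.8 and 19.3 CPM with scramble-shRNA, a log2 fold change of 0.45 (95% interval -0.017 to 0.92, unadjusted p = 0.0582). Its highest scramble-shRNA library lay just above its lowest Mylk-shRNA library. Col3a1 had a log2 fold change of 0.25 (95% interval -0.021 to 0.52, unadjusted p = 0.0689).

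For Rock1/2-shRNA against scramble-shRNA, 20 of 40 positive-fraction estimates were higher (median -0.003). Col9a3 stood at 0.320, 1.30 and 1.224 CPM with Rock1/2-shRNA, against 0.355, 0.859 and 0.317 CPM with scramble-shRNA, a log2 fold change of 0.84 (95% interval -0.46 to 2.15, unadjusted p = 0.192). These are a few reads per library, and the groups overlapped. Col4a3 had a log2 fold change of 0.64 (95% interval -0.46 to 1.75, unadjusted p = 0.237) and Col8a1 of 0.29 (95% interval -0.26 to 0.84, unadjusted p = 0.278). Mylk-shRNA against Rock1/2-shRNA gave 30 of 40 higher estimates (median 0.111). Col5a1 led with 0.29 (95% interval 0.0091 to 0.57, unadjusted p = 0.0437), before Col6a6 with 1.09 (95% interval -0.23 to 2.40, unadjusted p = 0.099) and Col3a1 with 0.21 (95% interval -0.062 to 0.48, unadjusted p = 0.123). Col6a6 stood at 3.31, 0.953 and 1.69 CPM with Mylk-shRNA and 1.92, 0.828 and 0.490 CPM with Rock1/2-shRNA, which overlap.

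In the negative fraction, Col2a1 had the smallest p for Mylk-shRNA against scramble-shRNA, at -0.35 (95% interval -0.72 to 0.015, unadjusted p = 0.0594). The Mylk-shRNA litter 3 library was the lowest for that gene, and the groups overlapped. Col15a1 stood at 30.3, 15.7 and 25.2 CPM with Mylk-shRNA, against 21.4, 16.3 and 16.5 CPM with scramble-shRNA, a log2 fold change of 0.38 (95% interval -0.089 to 0.85, unadjusted p = 0.107). Col9a1 followed at -0.50 (95% interval -1.13 to 0.13, unadjusted p = 0.113).

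For Rock1/2-shRNA against scramble-shRNA the first was Col17a1, with 0.783, 0.231 and 0.570 CPM with Rock1/2-shRNA, against 1.92, 0.740 and 1.03 CPM with scramble-shRNA, and a log2 fold change of -1.17 (95% interval -2.54 to 0.20, unadjusted p = 0.0891). Col8a2 had -0.25 (95% interval -0.62 to 0.12, unadjusted p = 0.178) and Col24a1 -0.36 (95% interval -0.93 to 0.20, unadjusted p = 0.195). For Mylk-shRNA against Rock1/2-shRNA, Col26a1 stood at 59.95, 77.3 and 55.98 CPM with Mylk-shRNA, against 74.00, 81.6 and 74.1 CPM with Rock1/2-shRNA, a log2 fold change of -0.24 (95% interval -0.49 to 0.011, unadjusted p = 0.0596). Col2a1 had -0.30 (95% interval -0.67 to 0.065, unadjusted p = 0.101) and Col8a1 0.48 (95% interval -0.12 to 1.08, unadjusted p = 0.113). For both Col17a1 and Col26a1 the groups overlapped.

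**Figure D5:**
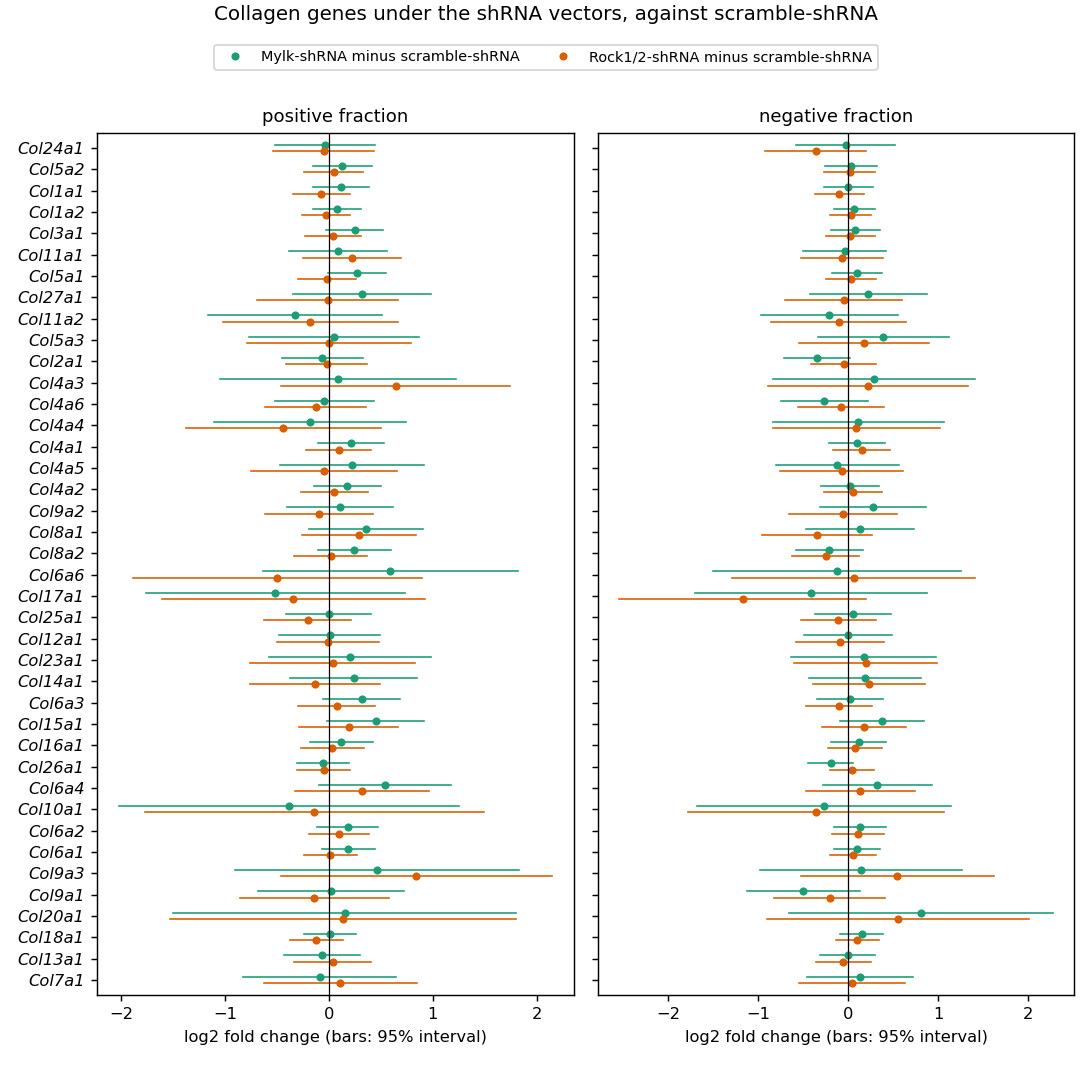
Log2 fold change with 95% intervals of the 40 collagen genes tested, for Mylk-shRNA (green) and Rock1/2-shRNA (orange) against scramble-shRNA, in the positive fraction (left) and the negative fraction (right), in the gene order of the fraction plot. Every interval in both panels crosses 0 in this fit, which had no litter block.

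The intervals given here come from the fit without a litter block and show the range of differences which that fit allows. With the block, edgeR gave 7 collagen genes an unadjusted p under 0.05 in the positive fraction for Mylk-shRNA against scramble-shRNA. They were Col3a1, Col4a1, Col5a1, Col6a3, Col11a2, Col15a1 and Col27a1, beside 4.01% of all genes, and 0 were called after adjustment. Intervals of the blocked fit are not given. For Col1a1 in the positive fraction the 95% interval of the log2 fold change was -0.15 to 0.39 for Mylk-shRNA against scramble-shRNA and -0.34 to 0.20 for Rock1/2-shRNA against scramble-shRNA. For Col4a1 the intervals were -0.10 to 0.53 with Mylk-shRNA and -0.22 to 0.41 with Rock1/2-shRNA. No gene of the assembly, basement membrane partner or receptor and turnover lists was called between vectors either, by edgeR, with at most 1 gene of a list at an unadjusted p under 0.05 in any of the 6 comparisons.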

How the data were processed

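The deposited table gave 18 libraries as estimated counts and as CPM, counts scaled to a library total of 1000000, both made by the authors. Adapter trimming, alignment and counting used fastp 0.24.0, STAR 2.7.11, SAMtools 1.22.1 and featureCounts (Subread 2.1.1) on GRCm39, per the submitters' processing notes. Which settings, annotation and strand mode were used was not given in the sources used here, so reads of overlapping or antisense genes cannot be told apart. Of the deposited estimated counts above 0, 22.1 to 27.4% were fractional in each library, and they were rounded to whole numbers. After 92 spike-in entries were left out, 78317 genes remained, of which 21909 had no symbol.

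Collagen genes were found by symbol and biotype. Genes passing edgeR's filter (minimum count 10, minimum total 15) numbered 16544. They were fitted with edgeR 4.0.16 (R 4.3.3, limma 3.58.1; TMM scaling, robust quasi-likelihood) as 6 group means with 12 residual degrees of freedom, and p-values were adjusted by Benjamini-Hochberg within each of 12 comparisons. DESeq2 1.42.0 was an alternative, as were other size factors, no filter, only the compared groups, blocks, no litter 3, and leaving out each library. The biological coefficient of variation was 0.165. The median SE was 0.112 for the fraction comparison and 0.198 in the positive fraction for Mylk-shRNA against scramble-shRNA. On simulated counts a 2-fold change was recovered in 95% of changed genes for the average fraction comparison, and in 80% in the positive fraction for Mylk-shRNA against scramble-shRNA. Changes were placed only in genes above a minimum mean CPM, and libraries were drawn independently, with no effect shared within a litter. The shares therefore do not cover genes at a few CPM, such as Col4a3 and Col4a4, or changes smaller than 2-fold.

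Replicate numbers name litters in the labels. Deviations from group means correlated at 0.237 to 0.639 over 45 same-litter pairs of libraries and at -0.544 to 0.31 over 90 different-litter pairs, so the numbers pair the samples. The fit without the block is the one reported, and blocked values are given where the block changed a call between fractions. Libraries of the same group differed by 4.29 to 52.1 chi-square units per gene, beyond counting noise. Litters were pools of kidneys, so the reported p-values rest on the spread between libraries of different litters within a group. That fit treated the 18 libraries as independent, although they came from 3 litters, and did not use the pairing by litter or culture.

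The collagen genes and all lists were chosen with earlier results of these data known. Values in every library were given for all type IV genes, for the 6 fibrillar and 6 other genes with the smallest p in the average fraction comparison, and for the 3 with the smallest p in each vector comparison. In each matrix list up to 4 genes with the smallest p were named, and further genes are marked as named after their values were seen. Some genes of the lists are not reported here.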

Additional observations from a re-analysis of the deposited data

How the results depend on the processing

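Of the 26 collagen genes called between fractions on the average of the vectors, 20 kept the call in every alternative run, and Col6a1, Col6a6, Col11a1, Col16a1, Col17a1 and Col23a1 lost it in at least 1. None of the alternative values for named genes reversed a call. With litter as a replicate block, 20 genes were higher with Mylk-shRNA (14 without it), 18 with Rock1/2-shRNA (11 without it) and 15 with scramble-shRNA (10 without it), where 13.2%, 11.3% and 12.4% of all genes were higher. On the average of the vectors 9 were lower (5 without it), beside 23.5% of all genes. With a replicate block by culture, 8 were lower on the average of the vectors. Leaving out each library in turn gave 2 to 4 genes lower with scramble-shRNA (2 without scramble-shRNA positive litter 2). It gave 8 to 14 higher with Mylk-shRNA (8 without Mylk-shRNA positive litter 1) and 7 to 11 higher with Rock1/2-shRNA (7 without Rock1/2-shRNA positive litter 2, negative litter 2 or negative litter 3). On the average of the vectors it gave 17 to 22 higher and 5 to 6 lower. The cause of these changes was not tested. Between vectors, the litter block called 0 collagen genes. Of the 22 alternative values for partner ratios, added after the data had been seen, all moved by less than 1 SD.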
